A study of Mus musculus with 2 samples.

Results

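The constitutive proteasome genes were taken as every gene whose symbol begins with Psma, Psmb, Psmc or Psmd followed by a digit. The interferon-inducible Psmb8, Psmb9 and Psmb10 and the pseudogenes marked -ps were left out. The rule found 37 of the 55357 genes counted: 16 of the core (Psma, Psmb), 20 of the cap (Psmc, Psmd), and Psmc3ip, which shares the letters but encodes a partner of the meiotic recombination machinery and no subunit. The cells were CD45+CD11b+ cells, sorted from cerebral cortices of mice aged 8 weeks and profiled by single-cell RNA sequencing. The wild-type and the moesin (Msn) knockout mice gave 1 library each, with 5 to 6 animals pooled per genotype; moesin links actin to the plasma membrane. The strain C57BL/6 is named for the knockout mice only, and the deleted part of Msn is not given in the sources used here. With 1 library a genotype there was no replicate: genotype cannot be told apart from library, no test was possible, and every interval below is a 95% exact interval that covers counting error only.

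The proteasome degrades proteins tagged with ubiquitin. Its core is a barrel with outer rings of alpha subunits (Psma) and inner rings of beta subunits (Psmb), of which Psmb5, Psmb6 and Psmb7 cut the substrate; during immune activation these can be replaced by Psmb8, Psmb9 and Psmb10. The cap that sits on the barrel binds the ubiquitin chain (Psmd4), removes it (Psmd14) and unfolds and feeds in the substrate with a ring of ATPases (Psmc). Microglia and monocytes use it for general protein turnover and for making peptides for antigen presentation.

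Cells were assigned to 3 classes by marker UMIs (unique molecular identifiers, counted transcripts). Microglia had at least 2 UMIs of P2ry12, monocytes at least 2 of Ace and Ly6c2 together, and border macrophages at least 2 of Mrc1, each with the other classes' markers at 0. The wild-type and knockout libraries gave 4059 and 3969 microglia, 22 and 363 monocytes, and 11 and 40 border macrophages. Class sums held 40159991 and 28932790 UMIs in microglia, 172735 and 2184011 in monocytes, and 43795 and 164087 in border macrophages, so the 2 wild-type sums outside microglia are shallow. The summed level of 12 microglial markers was 28968 and 29193 counts per 1e6 UMIs of the class (CPM) in microglia and 992 to 3766 CPM in the other classes. The sum of 12 monocyte markers was 11387 and 9737 CPM in monocytes. For 12 border macrophage markers it was 5800 and 15303 CPM in border macrophages. These sums include the gate genes, whose levels are set by the gates and are no check of the classes. In its own class P2ry12 was at 2456 and 2463 CPM and Mrc1 at 1530 and 1956 CPM. In monocytes Ly6c2 was at 1702 and 1008 CPM and Ace at 278 and 454 CPM. Msn, the check of the labels, was at 320 CPM in wild-type and 20.3 CPM in knockout microglia.

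To show the DNA in front of the genes on which the results turn, the bases before the start of 5 members are printed 5′ to 3′ on the gene's strand. They are Psma7, a core gene far higher in monocytes than in microglia, Psmb5, a catalytic gene among the highest in knockout microglia, and 3 cap genes: Psmd8, which was higher in monocytes, Psmd12, which was not, and Psmd14, the deubiquitinase. Psma7, Psmd8 and the choice of these sequences were settled after the values had been seen. Sequences are from the RefSeq promoter table (GRCm38.p6), which held 30 of the 37 members, and were placed on GRCm39 by exact match. Only bases that also lie before the annotated gene start are printed, so each stretch is shorter than the 250 bases searched for motifs. Capitals mark TGACNNNGC, the core of the element bound by CNC-type factors such as Nfe2l1, or CCAAT, on either strand.
Psma7, chr2:179684422-179684507, minus strand: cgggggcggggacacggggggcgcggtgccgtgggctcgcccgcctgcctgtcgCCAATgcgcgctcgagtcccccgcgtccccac
Psmb5, chr14:54855482-54855702, minus strand: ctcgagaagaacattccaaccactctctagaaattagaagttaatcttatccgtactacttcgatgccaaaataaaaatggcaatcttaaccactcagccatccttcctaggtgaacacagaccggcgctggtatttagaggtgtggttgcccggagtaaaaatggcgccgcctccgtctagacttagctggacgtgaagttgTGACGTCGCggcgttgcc
Psmd8, chr7:28880136-28880348, minus strand: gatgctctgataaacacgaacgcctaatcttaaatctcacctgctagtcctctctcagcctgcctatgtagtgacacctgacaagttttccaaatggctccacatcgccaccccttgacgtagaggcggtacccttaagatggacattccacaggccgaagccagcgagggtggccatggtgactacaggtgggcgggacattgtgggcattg
Psmd12, chr11:107370104-107370245, plus strand: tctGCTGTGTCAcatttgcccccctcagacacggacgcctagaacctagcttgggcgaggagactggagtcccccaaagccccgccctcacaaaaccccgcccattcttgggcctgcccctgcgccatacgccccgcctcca
Psmd14, chr2:61541788-61542025, plus strand: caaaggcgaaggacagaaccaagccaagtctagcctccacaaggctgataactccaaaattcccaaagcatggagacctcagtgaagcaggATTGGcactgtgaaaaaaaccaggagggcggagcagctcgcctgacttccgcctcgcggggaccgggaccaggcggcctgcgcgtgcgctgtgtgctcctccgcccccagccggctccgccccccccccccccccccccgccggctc

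Motifs were sought in the 250 bases before the RefSeq start. TGACNNNGC occurred in 2 of 13 core promoters (Psmb5 and Psmb6) and in 3 of 18 cap promoters (Psmc6, Psmd9 and Psmd12). Over the whole table it occurred in 10.2% of 32851 promoters. CCAAT occurred in 7 of 13 core promoters (Psma1, Psma2, Psma3, Psma6, Psma7, Psmb3 and Psmb11) and in 5 of 18 cap promoters, against 33.8% of all. Both motifs were sought on both strands, and matches of the one and the other can share bases only at their ends. A match is a run of letters and not a shown binding site.

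In microglia, core genes were higher relative to other genes in the knockout library, most of all Psmb3, Psmb5 and Psmb2 of the beta ring, while cap genes were higher by less. Summed core RNA was 1566 CPM in wild-type and 2019 CPM in knockout microglia, and summed cap RNA was 1490 and 1708 CPM. The median measured gene was lower by 0.29 (log2 CPM) in the knockout library, so ratios are given relative to that median. On this scale the core sum was higher by 0.65 (0.64 to 0.67) and the cap sum by 0.48 (0.47 to 0.50).

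The 36 core and cap genes are called subunit genes here, though 3 of them, Psmd5, Psmd9 and Psmd10, encode chaperones of cap assembly. Of the 36 subunit genes, 34 were measured, that is at 10 CPM or more in at least 1 of the sums compared, and all 34 were above 10 CPM in both libraries. Relative to the median, 13 of the 34 were at least 1.5-fold higher in knockout microglia (7 of 14 core, 6 of 20 cap) and 0 were as much lower. Over all 8698 measured genes, 14.5% were higher and 12.3% lower by this rule. All 34 ratios were above 0, and the median of the members was 0.52, against 0 for all genes by construction. On the plain CPM scale 29 of the 34 ratios were above 0 and 3 genes passed 1.5-fold, Psmb2, Psmb3 and Psmb5, against 4.39% of all genes higher and 29.8% lower. Median-of-ratios scaling gave 22 higher, but the share of all genes was not computed for that scaling, so this count has no background.

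The catalytic genes were not alike. Psmb5, the chymotrypsin-like subunit, was at 69.5 CPM in wild-type and 127 CPM in knockout cells, a relative log2 ratio of 1.16 (1.09 to 1.23). Psmb6, the caspase-like subunit, was at 137 and 158 CPM (0.49, 0.43 to 0.55). Psmb7, the trypsin-like subunit, was at 71.9 and 67.2 CPM (0.19, 0.11 to 0.27). The interval of Psmb5 thus lay above those of both other catalytic genes.

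Other beta-ring genes, which have structural roles, were also among the 5 highest. Psmb3 was at 90.9 CPM in wild-type and 167 CPM in knockout cells (1.17, 1.11 to 1.23). Psmb2 was at 104 and 171 CPM (1.00, 0.94 to 1.06), and Psmb1 at 134 and 195 CPM (0.83, 0.77 to 0.88). The fifth was Psmd13, a lid subunit of the cap, at 54.7 and 79.1 CPM (0.82, 0.73 to 0.90). Of these 5, Psmb3, Psmb5 and Psmb2 stayed at 1.5-fold or more under all 12 alternatives of processing tried for them. Psmb1 and Psmd13 did not pass it on the plain CPM scale.

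The lowest ratios belonged to genes whose CPM differed little or was lower. Psmc1, an ATPase of the ring, was at 51.2 CPM in wild-type and 43.6 CPM in knockout cells (0.05, -0.05 to 0.16). Among members that reached 50 CPM in either library, next after it and Psmb7 came Psmd12, a lid subunit, at 107 and 105 CPM (0.25, 0.19 to 0.32). Psmd7, the lid partner of Psmd14, was at 127 and 126.5 CPM (0.28, 0.22 to 0.34), and the alpha-ring gene Psma1 at 104 and 104 CPM (0.29, 0.23 to 0.36). Members of the same particle thus ranged from 0.05 to 1.17 on the log2 scale, wider than their counting intervals.

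**Figure D1:**
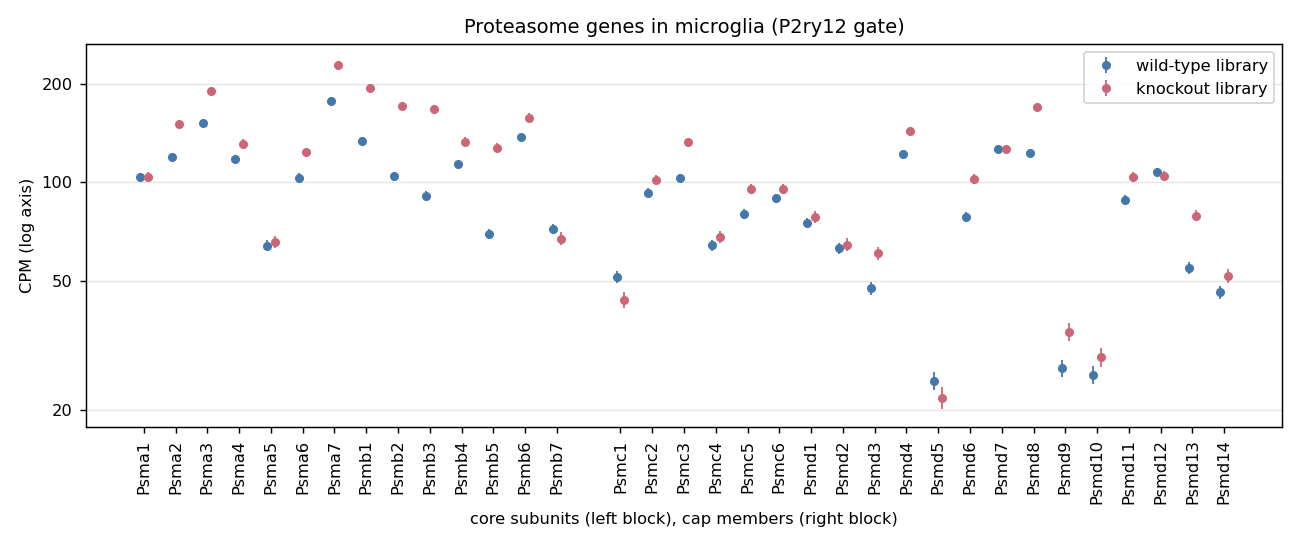
Level of each measured subunit gene in microglia of the wild-type (blue) and knockout (red) library, in CPM on a log axis, with 95% exact Poisson intervals that cover counting error only. The knockout points of Psmb2, Psmb3 and Psmb5 lie farthest above their wild-type points, while those of Psma1, Psmd7 and Psmd12 nearly coincide.

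By role, the beta ring had the highest pooled ratio, 0.79 (0.76 to 0.81), followed by the alpha ring at 0.53 (0.51 to 0.55), the non-ATPase cap genes at 0.51 (0.49 to 0.53) and the ATPases at 0.45 (0.42 to 0.48). The intervals of the alpha ring and the non-ATPase genes overlap, so these neighbours in the order did not differ beyond counting error. The higher ratio of the core sum than of the cap sum thus lay mainly in the beta ring. Among the genes around ubiquitin, the receptor Psmd4 was at 122 and 144 CPM (0.52) in wild-type and knockout cells. The scaffold genes Psmd1 (75.2 and 78.4 CPM, 0.35) and Psmd2 (62.7 and 64.4 CPM, 0.32) and the deubiquitinase Psmd14 (46.0 and 51.6 CPM, 0.45) lay within 1.5-fold. The chaperones of cap assembly are counted with the cap: Psmd9 was at 26.9 and 34.7 CPM (0.66), Psmd10 at 25.7 and 29.1 CPM (0.47), and Psmd5 at 24.6 and 21.8 CPM (0.11).

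The 2 tissue-restricted core genes were near the bottom of detection. Psma8, of the testis, was at 4.61 and 4.18 CPM, and Psmb11, of the thymus cortex, had 5 UMIs and 1 UMI in the 2 microglial sums. Psmc3ip was at 3.49 and 3.04 CPM. These 3 were under the 10 CPM minimum in microglia and monocytes and enter no count there; Psma8 passed it in knockout border macrophages, on 2 UMIs.

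The microglial cells of the libraries differed in depth, with medians of 6419 UMIs for wild-type and 5499 for knockout cells. Split by UMIs per cell, the relative core ratio was 0.85 (0.70 to 0.99) under 3000 UMIs and 0.61, 0.63 and 0.68 in the deeper groups. The cap ratio was 0.42 (0.27 to 0.57), 0.46, 0.45 and 0.51. Core was thus above cap in each of the 4 depth groups. With each cell thinned to 2000 UMIs, leaving out 134 wild-type and 288 knockout cells that were shallower, microglia held on average 3.14 and 4.02 core UMIs and 3.00 and 3.46 cap UMIs per cell.

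**Figure D2:**
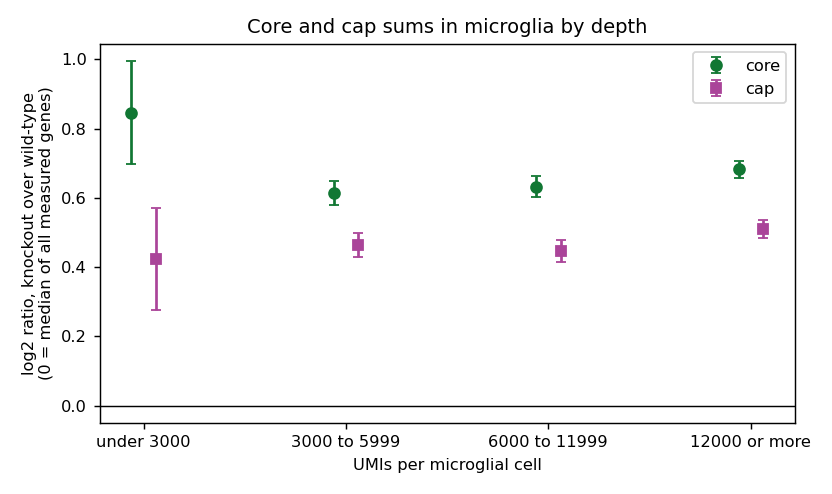
Relative log2 ratio of the summed core (green circles) and cap (purple squares) genes, knockout over wild-type microglia, in 4 groups of cells by UMIs per cell, with 95% exact intervals that cover counting error only. The core point is above the cap point in each group, at 0.61 to 0.85 against 0.42 to 0.51.

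Other measures also moved with the library. The median mitochondrial share of microglial UMIs was 1.41% in wild-type and 0.469% in knockout cells, and the heat shock gene Hspa1a was at 101 and 420 CPM. All 12 monocyte markers but Ace and Ly6c2, which the gate sets to 0, were detected in microglia, with a sum of 30.5 and 82.8 CPM. The sum of 3 neutrophil markers (S100a8, S100a9, Retnlg), all detected, was 19.0 and 206 CPM. The genes' genomic length was also related to the ratio: over 8687 measured genes the Spearman correlation of span with the ratio was -0.40, as a description across genes that share 2 libraries. Over the 34 subunits it was -0.17, and in genes spanning 10 to 20 kb the median was 0.21 for all 1686 genes and 0.47 for 12 subunits. At 5 to 10 kb the medians were closer, at 0.40 for all genes and 0.54 for 7 subunits. They were 0.33 and 0.83 (2 subunits) under 5 kb and -0.03 and 0.53 (8 subunits) at 20 to 50 kb. At 50 kb or more they were -0.32 and 0.45 (5 subunits). The part of these measures in the proteasome result was not tested.

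Monocytes had far more core RNA than microglia in both libraries, with a smaller difference in cap RNA. Summed core RNA was 2941 CPM in wild-type and 3703 CPM in knockout monocytes, against 1566 and 2019 CPM in microglia. Relative to the median gene, which was lower in monocytes by 0.37 and 0.39 (log2 CPM), this was 2.43-fold (log2 1.28, 1.15 to 1.41) and 2.40-fold (1.27, 1.23 to 1.30). Summed cap RNA was 1424 and 1914 CPM in monocytes, against 1490 and 1708 CPM in microglia, a relative log2 ratio of 0.31 (0.12 to 0.49) and 0.55 (0.51 to 0.60). On the plain CPM scale the cap ratio was -0.07 and 0.16, so the direction of the cap difference in the wild-type library depends on the scaling.

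The ratio of core to cap UMIs needs no scaling. It was 1.05 (1.04 to 1.06) in wild-type and 1.18 (1.17 to 1.20) in knockout microglia, and 2.07 (1.77 to 2.41) and 1.93 (1.86 to 2.01) in monocytes. It was therefore higher in monocytes than in microglia in both libraries, beyond counting error. The core ratio minus the cap ratio, monocytes over microglia, was 0.97 (log2) in wild-type and 0.71 in knockout cells. Other scalings, filters on genes and folds cannot move it. Over thinning and the other filters and gates for cells it ranged from 0.82 to 1.03 and from 0.62 to 0.74.

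**Figure D3:**
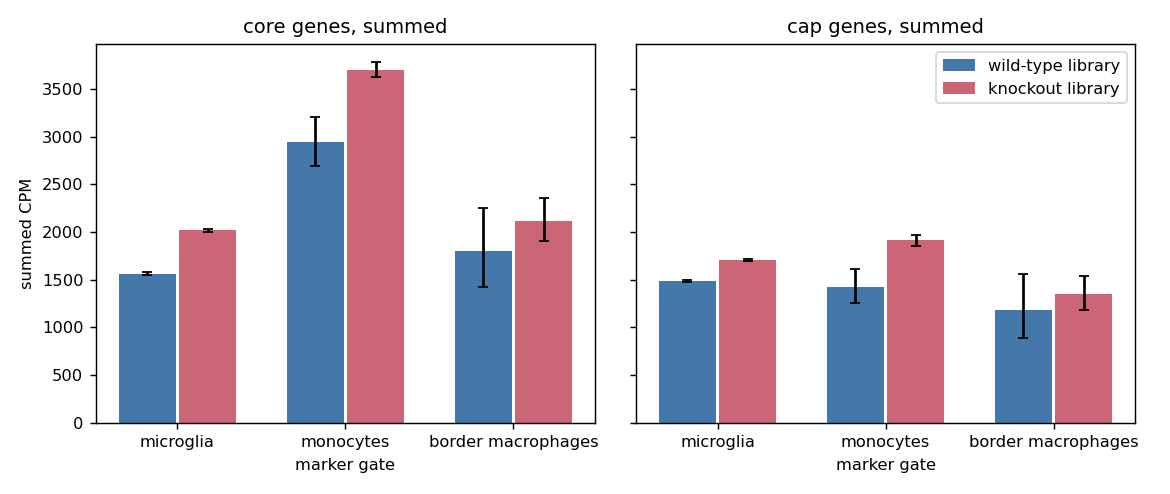
Summed CPM of the core genes (left) and the cap genes (right) in microglia, monocytes and border macrophages of the wild-type (blue) and knockout (red) library; bars start at 0 and error bars are 95% exact Poisson intervals for counting error only. The monocyte bars stand out for the core, at 2941 and 3703 CPM, and much less for the cap.

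Gene by gene, 17 of 34 subunits were at least 1.5-fold higher in wild-type monocytes than in wild-type microglia (12 of 14 core, 5 of 20 cap), and 3 were lower. In the knockout library 19 were higher (12 core, 7 cap) and 0 lower. Over all measured genes, 33.7% were higher and 35.8% lower in the wild-type library, and 31.4% and 30.3% in the other. The split was 13 higher and 5 lower in the wild-type library on the plain CPM scale, where 24.8% of all genes were higher and 44.4% lower. The cap counts thus lie near or under the background, and the core counts above it. In both libraries alike, 11 of 14 core genes were higher (all but Psma3, Psmb6 and Psmb7) and 3 of 20 cap genes (Psmc4, Psmd8 and Psmd13), against 25.2% of the 8352 genes measured in both.

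Psma7, the alpha-ring gene with the highest ratio, was at 178 CPM in microglia and 556 CPM in monocytes of the wild-type library, and at 229 and 735 CPM in the knockout library. Its relative log2 ratios were 2.01 (1.71 to 2.30) and 2.07 (1.99 to 2.15), so the libraries did not differ beyond counting error. Psmb3 was at 90.9 and 208 CPM in wild-type and 167 and 342 CPM in knockout microglia and monocytes (1.57 and 1.42). The other beta-ring genes named above were close to it in ratio. Psmb5 was at 139 and 253 CPM in wild-type and knockout monocytes (1.37 and 1.38 over microglia), Psmb1 at 255 and 372 CPM (1.30 and 1.32) and Psmb2 at 174 and 278 CPM (1.11 and 1.09). The catalytic Psmb6 (185 and 178 CPM; 0.80 and 0.56) and Psmb7 (69.5 and 75.5 CPM; 0.32 and 0.56) had lower ratios than Psmb5 in both libraries, though in the wild-type library the intervals overlap.

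Among the cap genes, Psmd8 and Psmd13, both lid subunits, came closest to the core. Psmd8 was at 123 and 214 CPM in wild-type microglia and monocytes and at 170 and 346 CPM in the knockout cells (1.17, 0.66 to 1.63, and 1.42, 1.30 to 1.53). Psmd13 was at 98.4 and 123 CPM in wild-type and knockout monocytes (1.22 and 1.02 over microglia), so its ratio was above that of Psmd8 in the wild-type and below it in the knockout cells. Several cap genes had no such difference in the well-covered knockout library: Psmd12 was at 105 CPM in microglia and 78.3 CPM in monocytes (-0.03, -0.26 to 0.19), Psmd1 at 78.4 and 54.9 CPM (-0.12, -0.40 to 0.14) and Psmd7 at 126.5 and 107 CPM (0.14, -0.05 to 0.34).

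The 3 cap genes that were lower in wild-type monocytes, Psmd3, Psmd5 and Psmd12, rest on few counts. Psmd12 had 5 UMIs there (-1.52, -3.14 to -0.30). Psmd5 had 0 UMIs, which allows up to 3 counts, and it no longer counts as lower at that floor. In knockout monocytes the ratios of Psmd3 and Psmd5 were -0.01 and -0.10. The receptor and scaffold genes were uneven as well: in knockout monocytes over microglia Psmd4 was at 0.75, Psmd14 at 0.77, Psmd2 at 0.55 and Psmd1 at -0.12, and the chaperones Psmd9 and Psmd10 at 0.89 and 0.35. The wild-type ratios of Psmd2 (0.63, on 13 UMIs) and Psma1 (0.85, on 25 UMIs) changed sign when cells were thinned to 2000 UMIs, to -0.31 and -0.03.

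**Figure D4:**
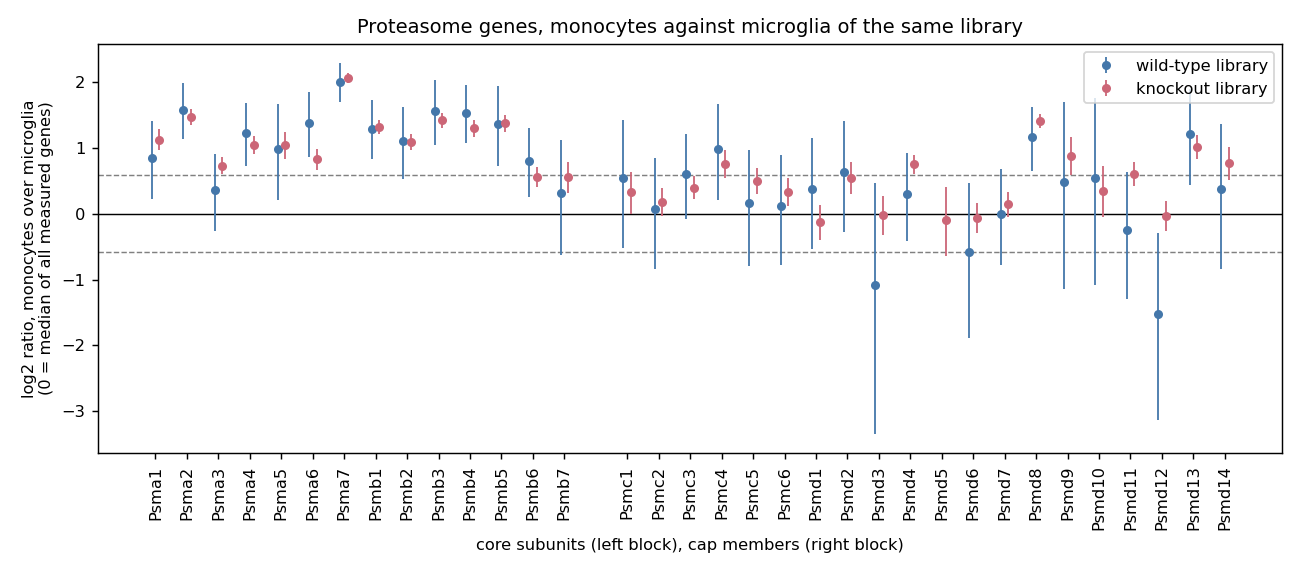
Log2 ratio of each measured subunit gene, monocytes over microglia of the same library, relative to the median measured gene (0), for the wild-type (blue) and knockout (red) library with 95% exact intervals for counting error; dashed lines mark 1.5-fold, and Psmd5, with 0 UMIs in wild-type monocytes, has no wild-type point. Core genes (left block) lie mostly above the upper line in both libraries, with Psma7 at 2.01 and 2.07, and cap genes (right block) mostly between the lines.

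Across the 33 subunits with UMIs in all 4 sums, the ratios of the libraries had a Pearson correlation of 0.85 and a Spearman correlation of 0.86. This is a description over genes that share the gates and the protocol. Thinned to 2000 UMIs, the 22 wild-type monocytes held 5.64 core and 3.05 cap UMIs on average, and 354 knockout monocytes 7.08 and 3.68, with 9 shallower knockout cells left out.

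The knockout monocyte gate also held RNA of other cells. The sum of the 3 neutrophil markers, all detected, was 1948 CPM there and 0 in wild-type monocytes, and 4 cells carried 98.9% of the S100a8 and S100a9 UMIs. Of 3 choroid plexus and ependyma markers all but Tmem212 were detected, with a sum of 957 CPM, against 0 in wild-type monocytes. Without the cells that held such RNA, the relative ratio over microglia was 1.27 for the core and 0.56 for the cap. Again 19 members were higher, but the share of all genes was not computed for that set of cells. The 12 microglial markers, of which P2ry12 is at 0 by the gate, summed to 1604 and 992 CPM in the wild-type and knockout monocytes.

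Within knockout monocytes, the core was lower in cells with Ace alone (190 cells, the patrolling kind's marker) than in cells with Ly6c2 alone (76 cells, the classical kind's marker). These cells differed in depth, with medians of 4893 and 8268 UMIs, and the part of depth was not tested. The comparison was not repeated without the cells that held neutrophil or choroid plexus RNA. Summed core RNA was 3409 CPM in the Ace cells and 4357 CPM in the Ly6c2 cells, and summed cap RNA 1927 and 1950 CPM. The relative log2 ratio was -0.44 (-0.51 to -0.36) for the core and -0.10 (-0.20 to 0.01) for the cap. By gene, 0 of 34 were higher and 4 were lower by 1.5-fold (Psma4, Psma7, Psmb7 and Psmd5), against 22.2% higher and 22.5% lower over all genes. The core to cap ratio was 1.77 and 2.23 in these cells, both above the 1.18 of knockout microglia. The wild-type library did not show the lower core sum in its 9 Ace and 8 Ly6c2 cells: core RNA was 2971 CPM (2535 to 3460) and 2976 CPM (2598 to 3395), and cap RNA 1854 CPM (1514 to 2249) and 1193 CPM (958 to 1468). Its core to cap ratio was nonetheless lower in the Ace cells, as in the knockout library. It was 1.60 (1.24 to 2.07) in the Ace and 2.49 (1.94 to 3.23) in the Ly6c2 cells, with overlapping intervals.

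Between the libraries, the monocyte ratios rest on 22 wild-type cells. Relative to the median, 17 of 34 subunits were higher in knockout monocytes and 0 lower, against 24.4% and 26.6% of all genes. Psmd5, with 0 wild-type UMIs, leaves the count at the floor of 3 counts, which gives 16 higher. The pooled ratio was 0.61 (0.48 to 0.74) for the core and 0.70 (0.52 to 0.89) for the cap, which overlap. Psmb5 (1.14), Psmb3 (0.99) and Psmb2 (0.96), the genes highest in knockout microglia, had intervals above 0 here as well. These sums share no cell with the microglial ones but come from the same libraries. Such intervals were not particular to these genes, being found for 7 of 14 core and 7 of 20 cap genes. The cap genes Psmd12 (1.71), Psmd3 (1.67) and Psmd11 (1.34) had higher ratios than Psmb5, on 5, 3 and 10 wild-type UMIs. In microglia Psmd12 was among the lowest, at 0.25. The marker makeup of the gate differed too, with Ly6c2 at 1702 CPM and Ace at 278 CPM in the wild-type sum, and at 1008 and 454 CPM in the knockout sum. Its part in these ratios was not tested.

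Border macrophages were few, and most single genes rest on a handful of UMIs. The wild-type cells had medians of 2223 UMIs and 3.73% mitochondrial UMIs, against 4474 UMIs and 0.568% in the knockout cells. The part of this difference in the ratios was not tested. The sums held 79 core and 52 cap UMIs in wild-type cells and 348 and 222 in knockout cells. Core over cap was 1.52 (1.06 to 2.20) and 1.57 (1.32 to 1.86), above the microglial ratio of the same library in the knockout pair. Relative to microglia, the core ratio was 0.34 (0.00 to 0.66) and 0.16 (0.00 to 0.31). The cap ratio was -0.19 (-0.62 to 0.20) and -0.25 (-0.45 to -0.06). With looser gates, which gave 39 and 144 cells, the core ratio was 0.11 (-0.08 to 0.29) and 0.24 (0.15 to 0.33), so the order of the libraries turned. The cap ratio with these gates was -0.19 (-0.41 to 0.01) and -0.15 (-0.26 to -0.04).

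Counts of members by the 1.5-fold rule were 9 higher and 10 lower of 34 in wild-type border macrophages, against 31.2% and 30.2% of all genes. Psmc5 and Psmd9 had 0 UMIs there, and at the floor of 3 counts 10 were higher and 8 lower. In the knockout library 2 of 35 were higher (Psma5 and Psma8, the latter on 2 UMIs) and 4 lower, against 27% and 29%, and the split was 1 and 7 on the plain CPM scale, against 24.1% and 31.5%. Knockout over wild-type, 14 of 35 were higher and 4 lower, against 29.7% and 37%, with 12 and 6 at the floor of 3 counts, and the interval excluded 0 for 0 of the 35. Over microglia, Psma1 in the wild-type library (1.27, 0.21 to 2.15, on 10 UMIs) was the 1 subunit in either library whose interval excluded 0; in the knockout library it was at 0.31 (-0.40 to 0.94).

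Other genes of the pathway were followed with a list of 38. In knockout over wild-type microglia 14 were higher, 2 lower and 22 within 1.5-fold, against 14.5% higher and 12.3% lower over all genes. On the plain CPM scale 8 were higher and 4 lower, against 4.39% and 29.8%. Among the highest were the polyubiquitin gene Ubb (1280 and 2823 CPM, 1.43) and the activator Psme2 (99.6 and 175 CPM, 1.10). The lowest were Psme4, another activator (55.7 and 27.4 CPM, -0.74), Ddi2, the protease that activates Nfe2l1 (94.8 and 50.8 CPM, -0.61), and the ubiquitin ligase Ube3c (41.4 and 23.3 CPM, -0.54). Nfe2l1, a factor known to induce proteasome genes, was at 56.0 and 42.7 CPM (-0.10), and Pomp, the chaperone of core assembly, at 219 and 284 CPM (0.66).

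In monocytes over microglia 15 of the 38 were higher and 6 lower in each library. Over all genes 33.7% and 31.4% were higher, and 35.8% and 30.3% lower. The higher count thus lay near or above the background, and the lower count under it. Sem1, a small cap subunit whose symbol lacks the Psm letters, had the highest ratio of the list in both libraries. Its level was 164 and 897 CPM in wild-type microglia and monocytes and 250 and 1291 CPM in the knockout cells (2.82 and 2.76). Pomp had ratios of 1.17 and 1.30, and Nfe2l1 of 0.10 and -0.51. The inducible Psmb8, Psmb9 and Psmb10 were higher in knockout microglia by 0.89, 0.69 and 0.70. Their share of the UMIs of the 3 catalytic pairs together was 57.0% and 59.8% in wild-type and knockout microglia, but the pairs went different ways. The share of Psmb8 with Psmb5 was 72.2% (71.3 to 73.1) and 68.2% (67.4 to 69.1), that of Psmb9 with Psmb6 was 36.3% and 39.5%, and that of Psmb10 with Psmb7 was 60.7% and 68.8%. For all 3 pairs it was 76.3% (71.0 to 81.1) and 75.8% (74.6 to 77.1) in monocytes.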

How the data were processed

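Single-cell libraries of CD45+CD11b+ cortical cells, 1 a genotype, were analysed from the deposited matrices of UMI counts per gene and barcode. Counts came from 10x Genomics 3′ v2 libraries and Cell Ranger on GRCm39, version 7.0.0 per the file headers and 6.0 per the labels' protocols. 3′ tags count transcript ends, so levels were compared between classes and not between genes. The libraries held 5842 and 9038 barcodes (68576464 and 67575835 UMIs; wild-type, then knockout) and shared 13 barcode sequences.

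A barcode was kept if it had 500 genes or more and a mitochondrial share of UMIs up to 10%, which left 5577 and 7573. Gates also required Nkg7, Cd3e and Cd79a at 0. No doublet caller was run; the gates remove cells with markers of more than 1 class. Cells kept but outside all gates numbered 1485 and 3201. Counts were summed per class and scaled to CPM. Genes that reached 10 CPM in at least 1 sum were compared as log2 ratios relative to the median measured gene, with 0.5 UMI in place of 0, and 1.5-fold was the size rule. Intervals were exact Poisson for levels, conditional binomial for ratios and Clopper-Pearson binomial for shares.

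The members, marker lists and pathway list were chosen with earlier results of these data known. Genes given in full were the catalytic subunits, the 5 highest and 5 lowest in microglia among members at 50 CPM or more, ubiquitin receptors and deubiquitinase, assembly chaperones, tissue-restricted genes and Psmc3ip, and, of the pathway list, its 3 highest (1 of which is not reported here) and 3 lowest, Psmb8, Psmb9, Psmb10, Pomp and Nfe2l1; genes outside this were named after their values were seen. Coordinates are from GENCODE on GRCm39. The scripts were tested on simulated data and run with Python 3.11.15, numpy 2.4.6, scipy 1.17.1 and pandas 2.3.3. Alternatives covered scaling, thinning to 2000 UMIs, filters, gates and the fold.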

Additional observations from a re-analysis of the deposited data

Results flagged for a closer look

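Processed pseudogenes of the family were left out of all comparisons. Over all barcodes of the wild-type library Psmb6-ps2 had 5 UMIs and Psma5-ps had 4 UMIs, above the 3 counts that a count of 0 allows; each had 1 UMI in the knockout library. The 5 pseudogene rows together held 10 and 2 UMIs in the wild-type and knockout libraries.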

How the results depend on the processing

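No paired analysis was possible because each genotype had 1 library. Of the alternative values of pooled ratios and counts of members, 98 stayed within the counting interval or within 1.5 times the count, 51 moved by more and 1 changed sign. The cause of the changes was not tested, except that median-of-ratios scaling and dropping the 10 CPM filter give the same centre here and so the same ratios. The 13 members higher in knockout microglia became 3 with plain CPM ratios, 22 with median-of-ratios scaling, 7 with genes at 30 CPM or more, 22 with no filter and 2 at 2-fold; the 0 lower became 1 with no filter. In microglia the core ratio of 0.65 was 0.37 with plain CPM, 0.81 with median-of-ratios scaling and with no filter, 0.64 thinned to 2000 UMIs and without cells over 20000 UMIs, 0.58 at 30 CPM and 0.74 with the gate on P2ry12 alone. The cap ratio of 0.48 was 0.20, 0.64 and 0.64 with plain CPM, median-of-ratios scaling and no filter, and 0.41 at 30 CPM. For wild-type monocytes over microglia, the 17 members higher were 11 at 2-fold. The core ratio of 1.28 was 0.91 with plain CPM, 0.98 with median-of-ratios scaling and with no filter, and 1.01 thinned. The cap ratio of 0.31 changed sign to -0.066 with plain CPM and was 0.0041 with median-of-ratios scaling and with no filter. Thinning also changed the sign of Psma1 (-0.030) and Psmd2 (-0.31) there. In the knockout library the 19 members higher were 12 with plain CPM, where 1886 of 8484 genes were higher, and 12 at 2-fold. The core ratio of 1.27 was 0.87 with plain CPM, 1.21 with median-of-ratios scaling, with no filter and with looser gates, 1.19 thinned, 1.11 at 30 CPM and 1.17 with P2ry12 alone. The cap ratio of 0.55 was 0.16 with plain CPM, 0.50 with median-of-ratios scaling and with no filter, 0.47 thinned and 0.40 at 30 CPM. The 9 members higher in wild-type border macrophages were 3 with median-of-ratios scaling and with no filter, 1 thinned, 4 with looser gates and 2 at 2-fold. The 2 higher in knockout border macrophages were 1 with plain CPM, median-of-ratios scaling, thinning, 30 CPM, at least 1000 genes per cell and 2-fold, 0 with looser gates and 4 with stricter gates. For alternatives other than plain CPM, the share of all genes called was not computed, so those counts have no background. The gate on P2ry12 alone, the removal of cells with neutrophil or choroid plexus RNA and the pooled monocyte ratios were added after seeing the data. Of the alternative values for single genes, 547 stayed within the counting interval and 117 moved by more. Another 2 changed sign, a label given only to ratios at 1.5-fold or more in the main setting. Sign changes of smaller ratios are in the other counts. In knockout over wild-type microglia, for example, Psmb7 went from 0.19 to -0.098 and Psmc1 from 0.05 to -0.23 with plain CPM. The 1207 wild-type and 1682 knockout cells with P2ry12 and another class's marker, with medians of 16471 and 12186 UMIs, are outside the gates, so the microglial sums lean to shallower cells. Depth limits the wild-type monocytes and both border macrophage sums.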
